A study of Mus musculus with 6 samples.

Results

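The genes described here lie beside the Duox/Duoxa cluster on mouse chromosome 2, the locus disrupted in Duoxa-/- mice, and were measured in ileal mucosa. The list named 8 genes, Trim69, Sord, Shf, Slc28a2, Bambi-ps1, Gatm, Spata5l1 and Slc30a4, and a probe set was taken for a gene where the platform annotation gave that symbol and no other. By this rule 6 of the 8 genes were measured, each by 1 probe set, out of 18193 genes with such a probe set. Sord had no probe set of its name and was not analysed here. Slc28a2 was annotated only together with its neighbour Slc28a2b on a shared probe set, whose values are given separately and assigned to neither gene.

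Ileal mucosa came from 3 Duoxa-/- pools and 3 wild-type (wt) pools of RNA, and each of 3 cages, 1 litter each, gave 1 pool of each genotype. A pool held RNA of 2 to 3 cohoused littermates, all females aged 3 months on the 129S6 background, and was hybridised to 1 single-colour Affymetrix array. No group was treated, and the labels do not state which bases of the locus were removed or what was inserted. Values are the authors' log2 RMA summaries, differences are Duoxa-/- minus wt on that scale, and 1 unit is a doubling.

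The Duox/Duoxa cluster holds the dual oxidases DUOX1 and DUOX2, which release hydrogen peroxide at the epithelial surface, and their maturation factors DUOXA1 and DUOXA2, which carry them out of the endoplasmic reticulum. The genes around the cluster have unrelated roles, from zinc and nucleoside transport to creatine synthesis. In a knockout, genes close to the targeted locus are inherited together with the targeted allele, and their expression is therefore commonly examined beside that of the target.

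In the RefSeq order of the chromosome, Trim69, Terb2 and Sord precede Duox2, Duoxa2, Duoxa1 and Duox1, and Shf, Slc28a2, Bambi-ps1, Slc28a2b, Gatm, Spata5l1, AA467197 and Slc30a4 follow them. Promoters of 4 members are shown because these members had 1 sign in all 3 cages, Trim69 lower and the other 3 higher. Bambi-ps1 had no entry in the promoter table. The sequences are RefSeq windows of assembly GRCm38.p6, from 250 bases before to 50 bases after the annotated start, the first listed for each gene, written 5′ to 3′ on the gene's strand. Capitals mark matches on either strand to the TATA box, searched as TATAAA, the CCAAT box, searched by these 5 letters, the GC box, searched as GGGCGG, and the E-box, searched as CACGTG; matches can overlap.
Trim69, chr2:122160458-122160757, plus strand: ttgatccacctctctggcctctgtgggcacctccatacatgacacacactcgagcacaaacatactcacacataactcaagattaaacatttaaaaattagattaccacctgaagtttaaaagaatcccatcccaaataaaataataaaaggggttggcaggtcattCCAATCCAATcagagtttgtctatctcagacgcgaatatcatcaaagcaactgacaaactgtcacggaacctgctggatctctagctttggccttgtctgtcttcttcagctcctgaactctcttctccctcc
Shf, chr2:122369098-122369397, minus strand: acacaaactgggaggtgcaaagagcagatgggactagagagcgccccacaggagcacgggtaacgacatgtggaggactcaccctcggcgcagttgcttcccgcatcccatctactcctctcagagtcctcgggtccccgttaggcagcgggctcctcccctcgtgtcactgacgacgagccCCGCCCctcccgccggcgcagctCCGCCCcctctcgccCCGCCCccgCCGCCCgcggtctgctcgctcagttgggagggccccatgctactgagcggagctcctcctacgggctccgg
Gatm, chr2:122611228-122611527, minus strand: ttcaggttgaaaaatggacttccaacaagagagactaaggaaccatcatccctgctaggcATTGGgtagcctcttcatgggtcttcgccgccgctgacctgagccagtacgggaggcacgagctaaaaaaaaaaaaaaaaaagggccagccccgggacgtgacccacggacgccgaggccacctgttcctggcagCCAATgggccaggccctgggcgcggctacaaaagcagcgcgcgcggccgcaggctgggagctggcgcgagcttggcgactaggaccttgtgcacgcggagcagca
Spata5l1, chr2:122630375-122630674, plus strand: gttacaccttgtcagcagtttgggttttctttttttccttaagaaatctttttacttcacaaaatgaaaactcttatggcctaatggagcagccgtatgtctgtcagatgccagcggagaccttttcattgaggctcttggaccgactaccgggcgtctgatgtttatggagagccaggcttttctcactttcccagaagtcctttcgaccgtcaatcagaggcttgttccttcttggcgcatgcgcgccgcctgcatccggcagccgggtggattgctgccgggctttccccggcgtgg

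No motif was present in all 4 windows. Shf held 4 matches to GGGCGG, a motif present in 35.7% of the 32851 promoters of the table, in a window of 68.7% G and C. Gatm held 2 matches to CCAAT, present in 37.4% of promoters, in a window of 60.7% G and C. Trim69 also held 2 matches to CCAAT, next to each other, in a window of 42.7% G and C. Spata5l1, at 51.7% G and C, held none of the 4 motifs, and none of the 4 windows held TATAAA (13.6% of promoters) or CACGTG (7.15%).

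Array medians lay between 6.55 and 6.60, and pairs of arrays correlated at 0.994 to 0.998 over all probe sets, with the wt pool of cage 1 lowest on average. Precision is limited by there being 3 arrays in a group. The ileal genes Fabp6, the bile acid binding protein of enterocytes, and Slc10a2, the bile acid uptake transporter, averaged 14.7 and 12.3 over the arrays, so these defining markers of the labelled tissue were present. The mean of 6 enterocyte markers lay between 13.2 and 13.4 in Duoxa-/- pools and between 13.3 and 13.4 in wt pools, with the Duoxa-/- pools of cages 1 and 2 below all wt pools, and 5 of the 6 markers had a lower mean in Duoxa-/- pools. Of other cell types, the mean of 6 smooth muscle markers lay between 11.3 and 11.7 in Duoxa-/- pools and between 11.5 and 12.2 in wt pools, highest in the wt pool of cage 1. The mean of 4 mast cell markers lay between 6.15 and 7.41 in Duoxa-/- pools and between 6.17 and 8.23 in wt pools. The mean of 3 B cell markers lay between 9.29 and 9.60 in Duoxa-/- pools and between 9.05 and 9.45 in wt pools, and that of 5 T cell markers between 8.02 and 8.34 in Duoxa-/- pools and between 8.07 and 8.57 in wt pools. The groups overlapped for each of these lists, and for those of tuft, goblet and Paneth cells and of colon, pancreas and erythroid cells. By marker, 6 of 6 smooth muscle, 4 of 4 mast cell, 5 of 5 T cell and 2 of 2 tuft markers had a lower mean in Duoxa-/- pools. By contrast, 2 of 3 B cell and 2 of 3 Paneth markers had a higher one, where 46.1% of all genes did. The median difference was -0.30 for smooth muscle, -0.65 for mast cell, -0.12 for T cell and 0.28 for B cell markers. The part of cell composition in the differences below was not tested, and in pooled tissue fewer cells of a type and less RNA per cell cannot be told apart.

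Of the Duox and Duoxa genes 3 were measured, and Duox2 had no probe set of its symbol alone. Duoxa2 separated the pools as labelled, and Duoxa1 and Duox1 did not. Duoxa2 read 5.90, 5.55 and 5.92 in the Duoxa-/- pools of cages 1, 2 and 3, against 8.81, 8.36 and 7.24 in the wt pools. All Duoxa-/- values were below all wt values, and the difference of -2.34 (SE 0.33) was the lowest of all 45037 probe sets tested, yet limma gave it an adjusted p of 0.794. Without the wt pool of cage 3, the lowest of the wt pools, the difference was -2.79 and passed (limma adjusted p = 0.016). Duoxa1 differed by -0.15 (95% interval -0.42 to 0.12) and Duox1 by 0.09 (95% interval -0.13 to 0.31), and for both the groups overlapped. All values of both lay below 6.58, the median of all probe sets, and no detection calls were at hand. Whether either transcript was kept or lost therefore cannot be told from these values. Leaving out 1 pool at a time gave -0.24 to -0.03 for Duoxa1 and 0.05 to 0.17 for Duox1, with Duoxa1 nearest 0 without the Duoxa-/- pool of cage 2 and Duox1 largest without the wt pool of cage 1.

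Across the flanking genes, 4 members on the Shf side of the cluster, Shf, Bambi-ps1, Gatm and Spata5l1, were higher in the Duoxa-/- pool of every cage, by 1.21-fold to 1.65-fold on average. Trim69, on the other side, was lower in every cage, and Slc30a4, the farthest of the measured members on the Shf side, was higher in 2 of 3 cages. With limma, adjusted over all probe sets, 0 of the 6 members passed at an adjusted p under 0.05, as did 0% of all probe sets in either direction. At an unadjusted p under 0.05, 3 members were higher and 0 lower, where 3.35% of all probe sets were higher and 2.63% lower. With cage as a block Gatm joined them, making 4, and again 0 passed after adjustment. By that blocked measure 1619 of all 45037 probe sets were higher and 1352 lower at an unadjusted p under 0.05. The members' median difference was 0.29, and that of all probe sets was 0.0013. These genes were listed with results of these arrays known, so their shared sign is a description.

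**Figure D1:**
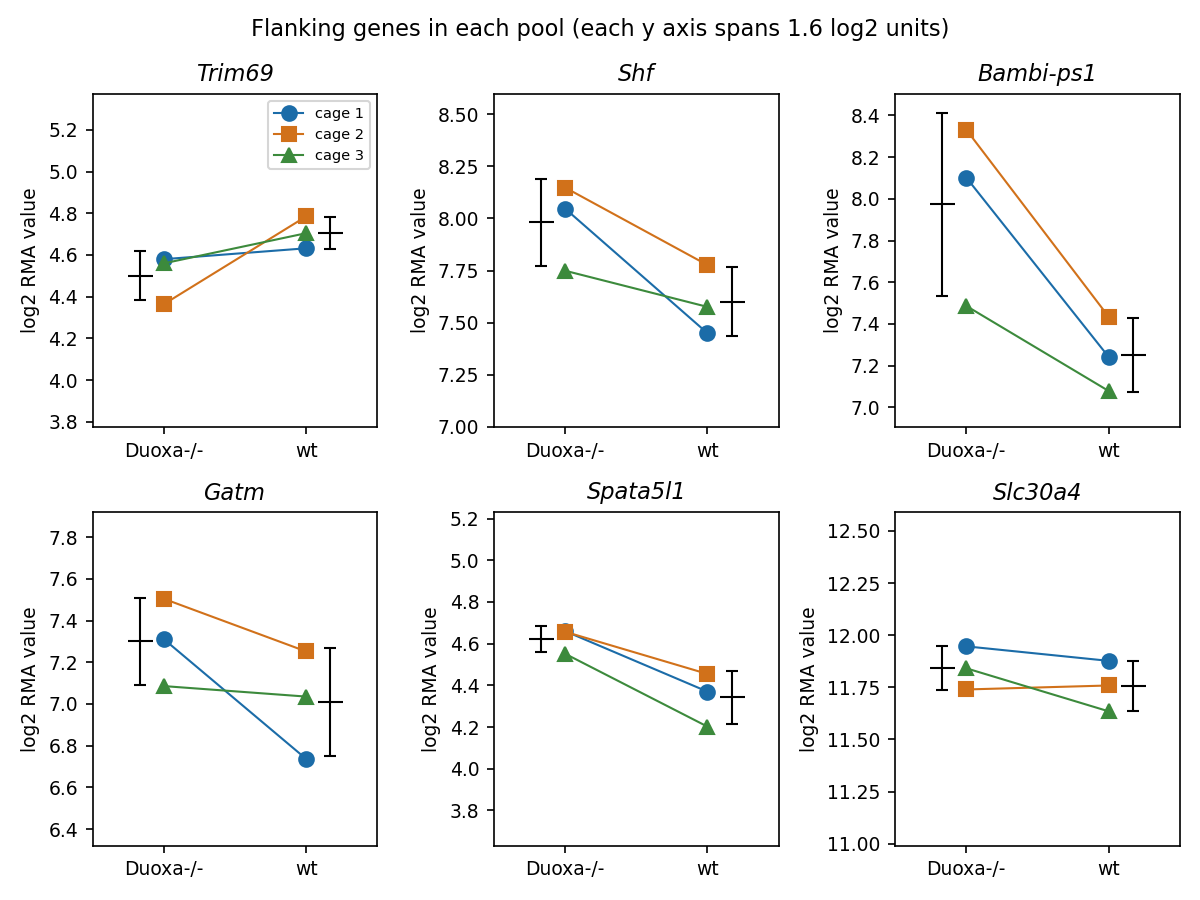
Log2 RMA value of the 6 measured flanking genes in each pool, Duoxa-/- left and wt right, with lines joining the pools of a cage and black bars giving the mean ± SD of 3 pools. The lines of Shf, Bambi-ps1, Gatm and Spata5l1 run down from Duoxa-/- to wt in all 3 cages, those of Trim69 run up, and those of Slc30a4 are mixed.

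Bambi-ps1 is a transcribed pseudogene related to Bambi, a membrane pseudoreceptor that dampens BMP and TGF-beta signalling, and had the largest difference among the members. It read 8.10, 8.33 and 7.49 in the Duoxa-/- pools of cages 1, 2 and 3, against 7.24, 7.44 and 7.08 in the wt pools. The groups did not overlap, although the lowest Duoxa-/- pool, that of cage 3, lay only just above the highest wt pool, that of cage 2. The mean was 7.97 ± 0.44 in Duoxa-/- pools and 7.25 ± 0.18 in wt pools (SD, n = 3 each), a difference of 0.72 (SE 0.20, 95% interval 0.27 to 1.17), or 1.65-fold higher. Only 16 of the 45037 probe sets had a larger positive difference, but limma gave an adjusted p of 0.794 (unadjusted p = 0.0059). By cage, Bambi-ps1 differed by 0.86 in cage 1, 0.90 in cage 2 and 0.41 in cage 3.

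Whether the probe set of Bambi-ps1 also reads the transcript of Bambi was not tested. Bambi itself, by its own probe set, was higher in 2 of 3 cages. It read 8.02, 8.31 and 8.23 in Duoxa-/- pools, against 8.08, 8.22 and 8.15 in wt pools. The groups overlapped throughout, with a difference of 0.04 (95% interval -0.18 to 0.26, limma adjusted p = 0.946). The interval of Bambi lay below the lower bound of that of Bambi-ps1, and the difference between the probe sets was not tested.

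Shf, the nearest measured gene beyond Duox1, encodes an SH2 domain adaptor protein linked to receptor tyrosine kinase signalling. It read 8.05, 8.15 and 7.75 in the Duoxa-/- pools of cages 1, 2 and 3, against 7.45, 7.78 and 7.58 in the wt pools. The groups overlapped slightly, since the Duoxa-/- pool of cage 3 lay slightly below the wt pool of cage 2. The mean was 7.98 ± 0.21 in Duoxa-/- pools and 7.60 ± 0.16 in wt pools (SD, n = 3 each), a difference of 0.38 (SE 0.13, 95% interval 0.09 to 0.67), or 1.30-fold. Cage 1 gave 0.60, cage 2 gave 0.37 and cage 3 gave 0.17, and the limma adjusted p was 0.794 (unadjusted p = 0.016).

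The probe set annotated to both Slc28a2 and Slc28a2b, neighbouring genes on either side of Bambi-ps1, had the same sign. Slc28a2 encodes a concentrative, sodium-coupled nucleoside transporter with a preference for purines. The shared probe set read 10.48, 10.36 and 10.23 in Duoxa-/- pools, against 10.08, 10.14 and 9.42 in wt pools. The groups did not overlap, and the wt pool of cage 3 stood lowest. The difference was 0.48 (SE 0.18, 95% interval 0.07 to 0.88, limma adjusted p = 0.794), with 0.40, 0.22 and 0.81 in cages 1, 2 and 3. Which of the genes carried it cannot be told from this probe set.

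Gatm encodes the mitochondrial glycine amidinotransferase, which makes guanidinoacetate from arginine and glycine in the first step of creatine synthesis. It read 7.31, 7.50 and 7.09 in the Duoxa-/- pools of cages 1, 2 and 3, against 6.74, 7.25 and 7.04 in the wt pools. The groups overlapped, and the wt pool of cage 1 stood below all other pools. The difference was 0.29 (SE 0.15, 95% interval -0.05 to 0.63, limma adjusted p = 0.794), made up of 0.57 in cage 1, 0.25 in cage 2 and 0.05 in cage 3. It was 0.16 without the wt pool of cage 1. With cage as a block the interval was 0.02 to 0.57 (limma adjusted p = 0.740).

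Spata5l1, the neighbour of Gatm, encodes an AAA-family ATPase that acts in ribosome biogenesis. It read 4.66, 4.66 and 4.55 in the Duoxa-/- pools of cages 1, 2 and 3, against 4.37, 4.45 and 4.20 in the wt pools. The groups did not overlap, and the difference was the most even of the members over cages, at 0.29, 0.20 and 0.35. The mean was 4.62 ± 0.06 in Duoxa-/- pools and 4.34 ± 0.13 in wt pools (SD, n = 3 each), a difference of 0.28 (SE 0.09, 95% interval 0.07 to 0.49, limma adjusted p = 0.794). All values lay below 6.58, the median of all probe sets, where RMA compresses differences, and without detection calls it was not known whether the transcript stood above background.

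Slc30a4 encodes ZnT4, a zinc exporter of intracellular vesicles that loads zinc into milk in the mouse mammary gland. It read 11.95, 11.74 and 11.84 in the Duoxa-/- pools of cages 1, 2 and 3, against 11.88, 11.76 and 11.63 in the wt pools. The values interleaved, with a difference of 0.09 (SE 0.10, limma adjusted p = 0.865). The 95% interval of -0.13 to 0.30 puts a fold between 0.91 and 1.23 within reach. The differences of Bambi-ps1, Shf, Trim69 and the shared Slc28a2b and Slc28a2 probe set lay outside it. Those of Gatm and Spata5l1 lay inside.

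Trim69, a RING-finger tripartite motif protein first described in testis, lies on the other side of the cluster. It read 4.58, 4.36 and 4.56 in the Duoxa-/- pools of cages 1, 2 and 3, against 4.63, 4.78 and 4.70 in the wt pools. The groups did not overlap, in the direction opposite to the members beyond Duox1. The difference was -0.21 (SE 0.09, 95% interval -0.41 to 0.0023, limma adjusted p = 0.794), largest in cage 2 at -0.42 against -0.05 in cage 1 and -0.14 in cage 3. All Trim69 values also lay below the median of all probe sets.

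**Figure D2:**
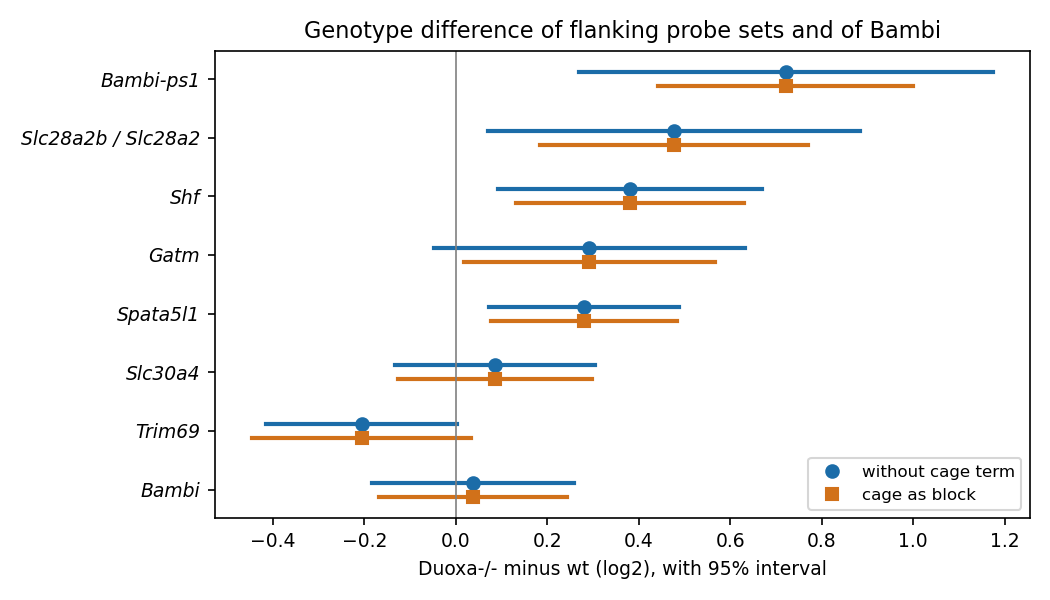
Duoxa-/- minus wt difference (log2, x axis) of the 6 members, of the probe set shared by Slc28a2b and Slc28a2, and of Bambi, with 95% limma intervals without a cage term (circles) and with cage as a block (squares). The unblocked intervals of Bambi-ps1, the shared probe set, Shf and Spata5l1 lie above 0, and those of Gatm, Slc30a4, Trim69 and Bambi include 0.

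Of the members, 2 were separated upward (Bambi-ps1 and Spata5l1) and 1 downward (Trim69), where 6.25% of all probe sets were separated upward and 5.36% downward. A sign shared by all 3 cages was found upward in 4 members and downward in 1, against 15.3% and 14.3% of all probe sets. Among all probe sets, 0.844% had a larger positive difference than Shf, 2.51% than Gatm, 2.91% than Spata5l1 and 25.2% than Slc30a4, and 5.31% had a lower difference than Trim69.

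**Figure D3:**
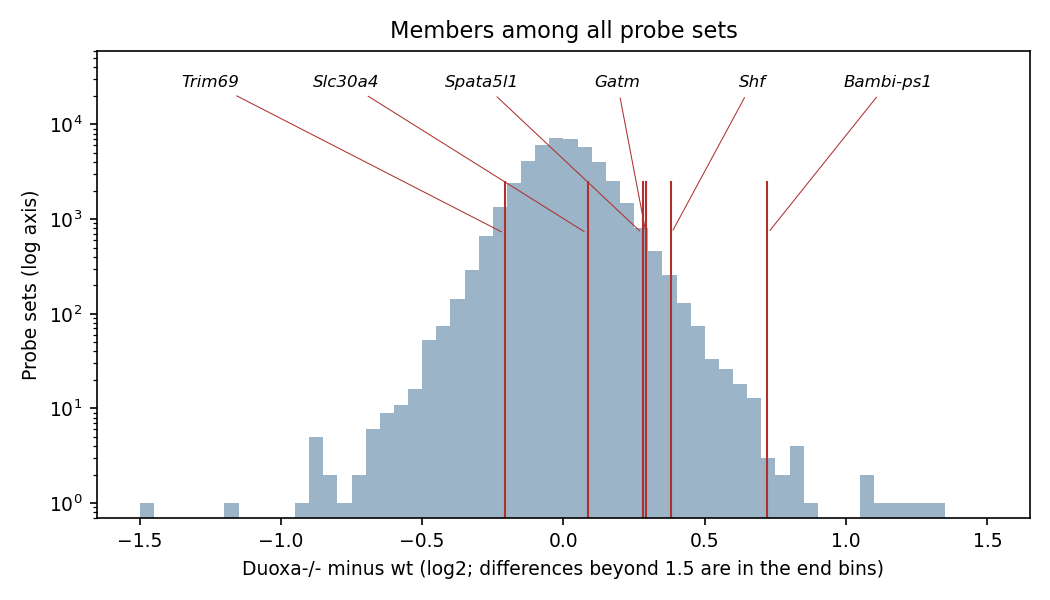
Histogram of the Duoxa-/- minus wt difference (log2, x axis) over 45037 probe sets, with counts on a log axis and red lines at the 6 members. Bambi-ps1 at 0.72 stands in the upper tail, and Slc30a4 at 0.09 and Trim69 at -0.21 lie within the bulk.

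To set the members beside their surroundings, all genes within 1 Mb of Duoxa2 in the RefSeq table were described, 30 measured in all with 1 probe set a gene, the one of highest mean. Leaving out Duoxa1, Duoxa2 and Duox1, the other 27 genes had a median difference of 0.02, with 17 above 0 and 10 below, against 46.1% of all genes above 0. With limma 0 of the 27 passed, as did 0% of genes in either direction, and 3 had an unadjusted p under 0.05, all of them higher and all members (Bambi-ps1, Spata5l1 and Shf). By the same measure 1.83% of all genes were higher and 3.58% lower. The 27 genes include the 6 members, which were listed with results of these arrays known. The 21 genes that are not members had a median difference of 0.01, with 12 above 0 and 9 below. Of these 21, 0 had an unadjusted p under 0.05 with limma.

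With 1 probe set a gene, the 4 largest positive differences within 1 Mb belonged to genes next to each other in the measured order. All 4 are members, listed with results of these arrays known, so their rank and their adjacency are a description. Beyond Duox1 the first 4 measured genes, Shf, Bambi-ps1, Gatm and Spata5l1, differed by 0.28 to 0.72, and the next 5, AA467197, Slc30a4, 4930417H01Rik, Bloc1s6 and Sqor, by -0.10 to 0.09. The first 4 of these 9 genes were higher in all 3 cages, as were 4 of the 18 genes on the Trim69 side (Pdia3, Serinc4, Golm2 and Ctdspl2) and 13.5% of all genes. AA467197, the host gene of the microRNA Mir147 by position, varied most of the 9 between cages, with differences of -0.40, 0.89 and -0.20.

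On the Trim69 side 18 genes were measured, with differences of -0.27 to 0.18 and a median of 0.01. Terb2, a meiotic telomere gene and the nearest measured gene before the cluster, differed by 0.01 (95% interval -0.18 to 0.20). B2m, the light chain of MHC class I, read 14.34, 14.28 and 14.27 in Duoxa-/- pools, against 14.25, 14.37 and 14.33 in wt pools, a difference of -0.03. Ctdspl2, a phosphatase of the CTD family, differed by 0.40, 0.18 and 0.16 in its 3 probe sets, singled out after these values were seen. The first of these had groups that did not overlap and a difference larger than that of Shf, with an unadjusted p of 0.016 and an adjusted p of 0.794 with limma, and a probe set of higher mean represented the gene above. A dimmer probe set of Golm2, a Golgi membrane protein, differed by 0.30 and was higher in all 3 cages, more than Gatm and Spata5l1, while the brighter one differed by 0.06. Shf, Bambi-ps1, Gatm and Spata5l1 had 1 probe set each. The choice of 1 probe set a gene therefore bears on their rank among the genes within 1 Mb, not on their own differences. The shared Slc28a2b and Slc28a2 probe set, which lies within that run and was not counted, differed by 0.48.

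**Figure D4:**
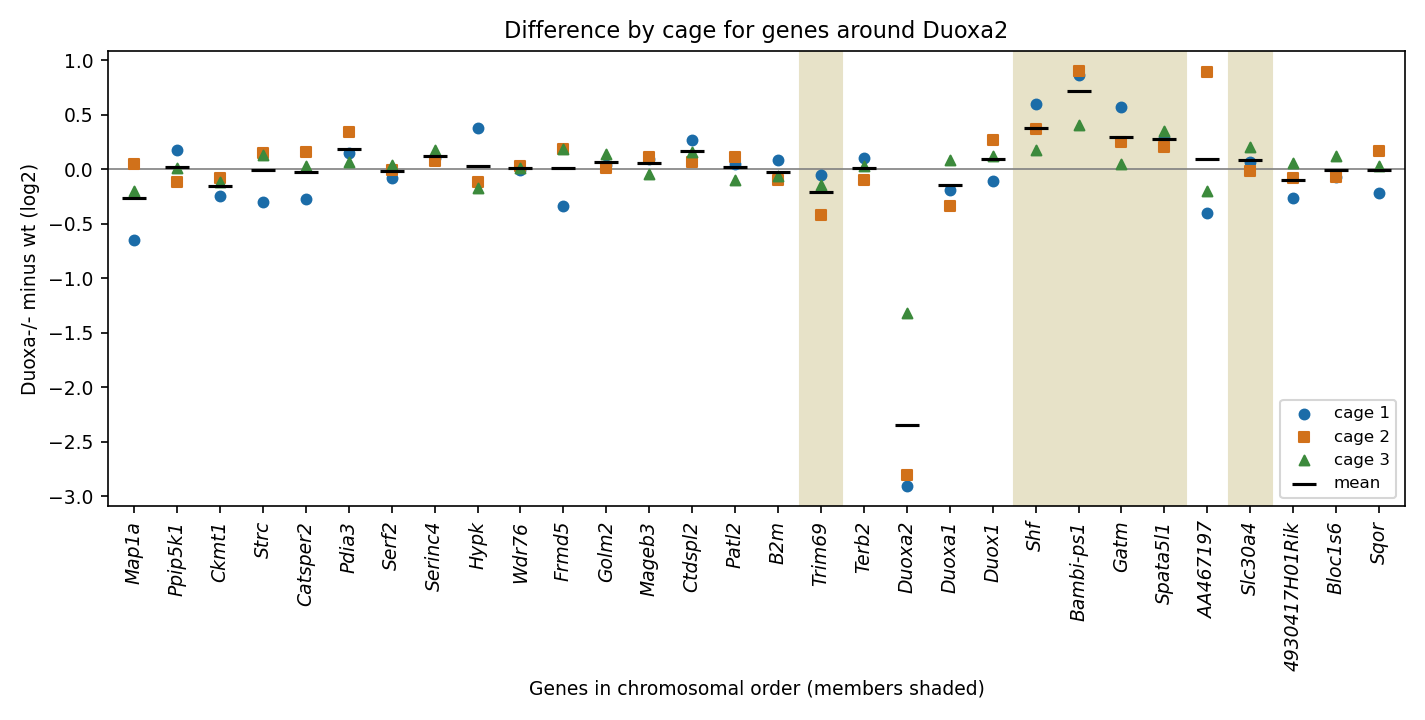
Duoxa-/- minus wt difference (log2, y axis) in cages 1, 2 and 3 for the 30 measured genes within 1 Mb of Duoxa2, in chromosomal order along the x axis, with black bars at the mean and the members shaded. Apart from Duoxa2 at -2.34, the largest means are those of Bambi-ps1 (0.72) and Shf (0.38), next to each other among the measured genes beyond Duox1.

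No member separated the litters after adjustment. A moderated F-test over cages with genotype in the fit passed 1 probe set of 45037, or 0.00222%, and 0 of the 6 members, of which 1 had an unadjusted p under 0.05. That member was Bambi-ps1 (limma adjusted p = 0.877, unadjusted p = 0.012), which within each genotype was lowest in cage 3 and highest in cage 2. The shared Slc28a2b and Slc28a2 probe set had a limma adjusted p of 0.886 between cages. At an unadjusted p under 0.05, 5.55% of all probe sets differed between cages.

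Bambi-ps1 had the widest range of the members over the 6 arrays, at 1.25 log2 units. The 3 genes most like it, by Pearson correlation over the 6 arrays among 3360 genes with a range of at least 0.5, were Tlr4, the lipopolysaccharide receptor (r = 0.984), Macc1, a transcriptional regulator (r = 0.984), and Snai2, a zinc-finger repressor (r = 0.974). In all, 33 genes exceeded 0.9 in that measure, which with 6 arrays of the same pools is a description. Tlr4 read 7.04, 7.19 and 6.39 in Duoxa-/- pools, against 6.04, 6.42 and 6.13 in wt pools. Its difference was 0.68 (SE 0.20, limma adjusted p = 0.794), while Macc1 differed by 0.33 and Snai2 by 0.30.

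In the pathway lists described next, no gene passed the test. At an unadjusted p under 0.05 without a cage term, 1.83% of all genes were higher and 3.58% lower. Sord and Slc28a2, of the polyol and nucleoside lists, had no probe set of their own, and the BMP list holds Bambi but not Bambi-ps1. Of 18 measured genes of creatine and arginine metabolism, 0 passed with limma and 0 had an unadjusted p under 0.05. With cage as a block 3 did, Gatm, Slc6a8 and the arginase Arg2 (-0.31, SE 0.20), and 0 passed after adjustment. By that blocked measure 364 of all 18193 genes were higher and 736 lower. Of the 18, 5 were above 0 and 13 below, with a median of -0.05. Gatm was the highest of them, while Slc6a8, the creatine transporter, differed by -0.23 (SE 0.11) with values of -0.24, -0.19 and -0.24 in cages 1, 2 and 3, and Odc1, the ornithine decarboxylase of polyamine synthesis, by 0.20 (SE 0.10). Gamt, the enzyme after GATM in creatine synthesis, singled out for its role, differed by -0.09 (SE 0.12).

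Of 27 zinc transporters and metallothioneins, 0 passed with limma and 1 had an unadjusted p under 0.05, Slc39a5, 15 were above 0 and 12 below, with a median of 0.0041. The members of smallest p were Slc39a5, a zinc importer of the enterocyte basolateral membrane (-0.25, SE 0.09), Slc39a10 (0.22, SE 0.10) and Slc39a3 (-0.16, SE 0.09), both zinc importers. With cage as a block 3 of the 27 had an unadjusted p under 0.05, 2 higher and 1 lower, and 0 passed. Of all 18193 genes, 364 were higher and 736 lower by that measure. Slc30a10, a manganese exporter of this family singled out as the largest difference of the list, read 9.61, 9.60 and 8.41 in Duoxa-/- pools, against 8.66, 9.23 and 7.76 in wt pools. The groups overlapped, and it was higher in each cage, by 0.66 on average (SE 0.40, limma adjusted p = 0.796, and 0.740 with cage as a block). Slc30a10 differed by 0.26 when the wt pool of cage 3 was left out and by 1.05 when its Duoxa-/- pool was. Of 17 measured genes of nucleoside transport and purine salvage, 0 passed with limma and 0 had an unadjusted p under 0.05, and the median was -0.01. Dck, the deoxycytidine kinase, differed by 0.25 (SE 0.12), the purine salvage enzyme Hprt by 0.10 (SE 0.08) and the transporter Slc29a4 by -0.16 (SE 0.14), which was -0.05 without the wt pool of cage 1 and -0.29 without that of cage 2. With 1 pool left out Dck lay between 0.16 (Duoxa-/- pool of cage 2 left out) and 0.37 (Duoxa-/- pool of cage 3 left out).

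For the polyol and fructose genes, where sorbitol dehydrogenase, the product of Sord, turns sorbitol into fructose, 8 of 12 were measured, 0 passed with limma, 1 (Slc2a5) had an unadjusted p under 0.05, and 6 were below 0, with a median of -0.19. The fructose transporter Slc2a5 read 8.33, 8.22 and 8.87 in Duoxa-/- pools, against 8.73, 8.80 and 9.38 in wt pools. It was lower in each cage, by a difference of -0.50 (SE 0.21, adjusted p = 0.794), though the groups overlapped because both pools of cage 3 were high. The difference was -0.29 without the wt pool of cage 3. With cage as a block 2 genes of the list had an unadjusted p under 0.05, Slc2a5 and Pfkl, both lower, and 0 passed. Among all 18193 genes 736 were lower and 364 higher by that measure. Pfkl, a phosphofructokinase, differed by -0.36 (SE 0.17), with -0.75, -0.41 and 0.08 in cages 1, 2 and 3, and Hk2, a hexokinase, by 0.54 (SE 0.32), with 1.51, 0.26 and -0.15. Without the wt pool of cage 1, Pfkl differed by -0.17 and Hk2 by 0.23; without the wt pool of cage 3 Pfkl differed by -0.56, and without the Duoxa-/- pool of cage 3 Hk2 differed by 0.84.

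Of the 24 BMP and TGF-beta pathway genes, Bambi among them, 0 passed with limma, 1 (Tgfbr2) had an unadjusted p under 0.05, and 14 were above 0, with a median of 0.01. With cage as a block Tgfbr2 no longer did (limma unadjusted p = 0.058). In that fit 1 gene of the list did, Tgfb1, which was lower, and 0 passed after adjustment. Of all 18193 genes, 736 were lower and 364 higher by that blocked measure. The receptor gene Tgfbr2 differed by 0.19 (SE 0.08), with 0.22, 0.17 and 0.18 in cages 1, 2 and 3, the ligand gene Bmp5 by 0.15 (SE 0.08) and the ligand gene Tgfb1 by -0.39 (SE 0.20), with -0.66, -0.62 and 0.11 in cages 1, 2 and 3. Tgfb1 differed by -0.18 without the wt pool of cage 1 and by -0.61 without that of cage 3.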

How the data were processed

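Ileal RNA pools were measured on 6 single-colour Affymetrix arrays. Per the submitters' processing notes, which name RMA and affy, the deposited log2 values are the authors' probe set summaries; the version of neither is given in the sources. RMA corrects background, equalises the arrays and compresses differences of dim probe sets. The table's 45101 rows included 64 controls, not used. A single gene symbol was given for 34945 of the remaining 45037 probe sets, several for 932 and none for 9160. Gene identifiers of 34741 matched the RefSeq table of GRCm38.p6, and 0 symbols changed.

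Genotypes were compared with limma 3.58.1 in R 4.3.3 (lmFit, eBayes, two-sided, Benjamini-Hochberg over all 45037 probe sets) without a cage term. For cages, limma's moderated F-test was used, genotype being a term of the model. Intervals and SE are from limma, and SD is over 3 pools. The fits were also run on simulated data with independent noise in each array. Such a run checks the code, not how the fits behave on pools that share a cage. Tables and figures used Python 3.11.15, pandas 2.3.3 and matplotlib 3.10.9.

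The members and lists were chosen with earlier results of these data known. Named are all members, the measured Duox and Duoxa genes, and the 3 genes of smallest p within 1 Mb of Duoxa2 and in each list. Also named are the 3 genes most like the member of widest range. Bambi, Gamt, Ctdspl2, Terb2, B2m, AA467197 and other neighbours were named for their role or position, some with their values known.

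The design text equates cages with litters, so the cage number pairs the pools. Deviations from the group means of the pools of a cage correlated with r of -0.15, 0.07 and 0.29 in cages 1, 2 and 3. Alternatives were the cage block, other filters and scalings, and leaving out each pool.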

Additional observations from a re-analysis of the deposited data

How the results depend on the processing

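With cage as a replicate block, 0 member probe sets and 0 of all probe sets passed (smallest adjusted p 0.740), so the pairing changed no call after adjustment. Under all 14 alternatives 0 members passed, and Trim69, Shf, Bambi-ps1, Gatm, Spata5l1 and Slc30a4 kept their sign wherever they were tested. Trim69 and Spata5l1 were not tested among probe sets at or above the median, being dim. Leaving out each pool in turn gave 0.54 to 0.96 for Bambi-ps1, 0.30 to 0.50 for Shf, 0.16 to 0.41 for Gatm, 0.21 to 0.34 for Spata5l1, 0.02 to 0.15 for Slc30a4 and -0.25 to -0.14 for Trim69. The lowest for Gatm was without the wt pool of cage 1, the highest for Slc30a4 was also without it, and the lowest for Slc30a4 was without the wt pool of cage 3. Without the wt pool of cage 1, Bambi-ps1 was 0.72 and Shf 0.31. Without the wt pool of cage 3, 1 probe set passed, Duoxa2 (-2.79, adjusted p = 0.016), which was also the count among the Duox and Duoxa probe sets and among genes within 1 Mb, against 0 in the other 5 such fits. The cause was not tested. The median of the 27 genes within 1 Mb lay between 0.01 and 0.05, and that of the 9 genes on the Shf side, 0.09, between 0.05 when the wt pool of cage 3 was left out and 0.32 when its Duoxa-/- pool was. Between cages the count of 1 became 0 without a genotype term and 2 with 1 probe set per gene, and lay between 1 and 16 when a pool was left out, with fewer residual degrees of freedom. Without detection calls, signal over background is unknown for Trim69, Spata5l1, Duoxa1 and Duox1, which lay below the median of all probe sets.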
